A study of Mus musculus with 6 samples.

Results

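The genes described here encode the receptor for interleukin-4 (IL-4) and IL-13 and the proteins that first carry its signal. They were Il4ra, Il13ra1, Il2rg, Jak1, Jak3, Tyk2, Stat6, Irs2, Irs1 and Ptpn6, chosen by name as the known parts of this pathway, and they are 10 of 55421 genes in the count files. RNA sequencing was done on monocytes from the spleen, with 3 libraries of IL-4Rα+/+ mice and 3 of IL-4Rα-/- mice. All mice were of the C57BL/6 strain, the labels name no treatment, and the cells were enriched by removing other cells with antibodies and magnetic beads. The IL-4Rα-/- mice lacked the receptor in the whole body and not in monocytes alone. The study used adult mice, and the labels give no age for each mouse.

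IL-4 first binds IL-4Rα, the product of Il4ra. The complex then takes up either the common gamma chain, encoded by Il2rg, to make the type I receptor, or IL-13Rα1 to make the type II receptor, which also answers to IL-13. None of these chains is an enzyme, and the signal starts with Janus kinases that sit on them: JAK1 on IL-4Rα, JAK3 on the common gamma chain and TYK2 or JAK2 on IL-13Rα1. The kinases phosphorylate tyrosines of IL-4Rα, where STAT6 docks, is phosphorylated and moves to the nucleus to switch on genes of alternative macrophage activation. IRS2 and IRS1 dock on another tyrosine and lead to phosphoinositide 3-kinase, while SHP-1, encoded by Ptpn6, is a tyrosine phosphatase that ends signals of this kind.

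Il4ra lies on the forward strand of chromosome 7 (GRCm38, chr7:125552120-125579474), and its main protein-coding transcript, Il4ra-201, has 11 exons and 5256 bases. The primers with which the study genotyped its mice are named for exons 7 and 8 and intron 6. Exon 7 of Il4ra-201 is shown because it holds the primer named for exon 7. It is 157 bases (chr7:125571434-125571590), printed 5′ to 3′ on the forward strand from the GENCODE M21 transcripts. The primer named for exon 8 did not lie in any exon of Il4ra-201, so the exon numbers of the study may differ from those of this transcript and no exon 8 is shown.
Exon 7: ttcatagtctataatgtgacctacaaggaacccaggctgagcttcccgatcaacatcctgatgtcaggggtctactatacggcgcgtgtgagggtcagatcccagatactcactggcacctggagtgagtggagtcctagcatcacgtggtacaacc
Which exons the mutant allele lacks was not given in the sources used here. The deposited counts were 1 number per gene, so reads on this exon could not be separated from reads on the rest of Il4ra, whose last exon alone is 3951 of the 5256 bases.

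Of the 10 genes, Il4ra had the largest genotype difference. Its level, as normalized read counts (CPM, counts scaled to library size and then between libraries by the TMM method), was 137, 128 and 177 in the IL-4Rα+/+ libraries 1, 2 and 3 and 27.9, 79.4 and 31.8 in the IL-4Rα-/- libraries 1, 2 and 3. The genotypes did not overlap, but reads of the gene remained in every IL-4Rα-/- library, and replicate 2 was well above the other two. The raw counts behind these levels were 3903, 3550 and 4686 against 781, 2268 and 940. The means were 147 ± 25.8 CPM and 46.4 ± 28.7 CPM (SD, n = 3 each), so that the IL-4Rα-/- mean was 31.4% of the IL-4Rα+/+ mean. The log2 fold change was -1.67 with a standard error of 0.41 and a 95% interval of -2.65 to -0.69. Its unadjusted p was 0.00529 in edgeR's quasi-likelihood test. After Benjamini-Hochberg adjustment over the 13849 genes tested, its edgeR p was 0.618, above the threshold of 0.15. The study had set that threshold for adjusted p values of DESeq2. In DESeq2 Il4ra had an adjusted p of 0.0111 and passed it. The two-sided exact permutation test gave p = 0.10, the smallest value that 3 against 3 allows. Among all genes tested, 13 had a lower log2 fold change than Il4ra. These 13 were at low levels, with IL-4Rα+/+ means from 0.43 CPM (Gm42648) to 5.88 CPM (Cgnl1).

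**Figure D1:**
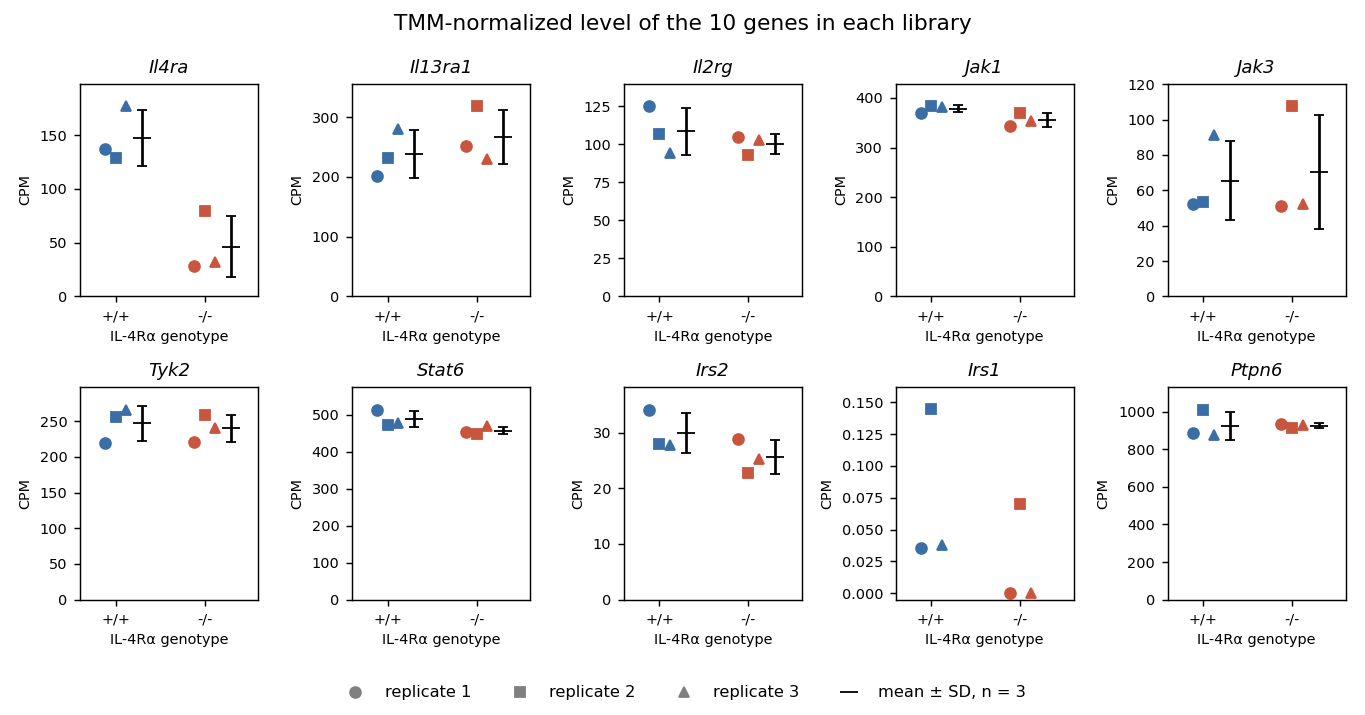
Level of each of the 10 genes in CPM (y axis, starting at or just under 0, a separate scale for each gene) by IL-4Rα genotype (x axis). Each symbol is 1 library and bars give mean ± SD (n = 3), left out for Irs1. Il4ra ran from 128 to 177 CPM in IL-4Rα+/+ and from 27.9 to 79.4 CPM in IL-4Rα-/- libraries, while the ranges of most other genes overlapped.

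In the whole set, 0 of the 9 tested genes passed the adjusted edgeR threshold, against 0% of all genes, and 1 (Il4ra) had an unadjusted p under 0.05, against 8.09% of all genes. With DESeq2, 1 of them was called, and it was lower, against 0.571% of 14003 genes called and 0.293% called lower. The values of Il4ra, Jak1 and Stat6 did not overlap between genotypes, 3 of 9 genes and all lower in IL-4Rα-/- libraries, against 15.5% of all genes tested and 7.87% in that direction. Of the 9 genes, 6 were lower by any amount, against 48.5% of all genes. The median absolute log2 fold change of the other 8 genes was 0.10, and that of all genes tested was 0.15. Their unadjusted p ran from 0.124 to 0.996.

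Il13ra1, the partner chain of the type II receptor and a gene of the X chromosome, was at 201, 232 and 281 CPM in the IL-4Rα+/+ libraries and 251, 318 and 231 CPM in the IL-4Rα-/- libraries. The groups overlapped, and the highest value of each genotype was in IL-4Rα+/+ replicate 3 and IL-4Rα-/- replicate 2. The log2 fold change was 0.17 (SE 0.17, 95% interval -0.23 to 0.56, edgeR adjusted p = 0.766).

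Il2rg, the common gamma chain that IL-2, IL-7, IL-9, IL-15 and IL-21 receptors also use, was at 125, 107 and 94.4 CPM in IL-4Rα+/+ and 105, 92.7 and 103 CPM in IL-4Rα-/- libraries. The groups overlapped. IL-4Rα+/+ replicate 1 was the highest library and IL-4Rα-/- replicate 2 the lowest, the reverse of Il13ra1. The log2 fold change was -0.12 (SE 0.12, 95% interval -0.40 to 0.16, edgeR adjusted p = 0.766). Of the exon bases of Il2rg, 30.5% are shared on the same strand with the annotated gene Gm20489, which had 0 counts in every library, so reads that fall on both genes may not have been counted for Il2rg.

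Within a library, the ratio of Il2rg to Il13ra1 per kb of exon compares the partner chains of the type I and type II receptors without regard to library size. It was 0.966, 0.717 and 0.523 in the IL-4Rα+/+ libraries and 0.649, 0.453 and 0.695 in the IL-4Rα-/- libraries. By this length Il13ra1 was the higher of the partners in all 6 libraries, but the order depended on the length used. By exon bases not shared with another gene the ratio was 1.39, 1.03 and 0.753 against 0.934, 0.652 and 1.00, so that Il2rg was the higher in 2 libraries, and by longest transcript it was also the higher in 2. On the log2 scale the genotypes differed by -0.28, with p = 0.40 in a two-sided exact permutation test. The ratio of Il4ra to Il13ra1 was 0.421, 0.343 and 0.390 in IL-4Rα+/+ and 0.0687, 0.154 and 0.0852 in IL-4Rα-/- libraries, without overlap (exact permutation p = 0.10, the smallest possible).

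The kinases did not pass the test between genotypes. Jak1, which binds IL-4Rα, was at 370, 383 and 381 CPM in IL-4Rα+/+ and 343, 370 and 353 CPM in IL-4Rα-/- libraries. These values just missed each other, with the lowest IL-4Rα+/+ library at 370.2 and the highest IL-4Rα-/- library at 369.8 CPM. The log2 fold change was -0.09 (SE 0.07, 95% interval -0.25 to 0.07, edgeR adjusted p = 0.704).

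Jak3, the kinase of the common gamma chain, was at 52.0, 53.2 and 91.1 CPM in IL-4Rα+/+ and 51.1, 107 and 52.3 CPM in IL-4Rα-/- libraries. In each genotype 2 libraries lay within 51.1 to 53.2 CPM and the other was far above them. The coefficient of variation over the 6 libraries was 36.7% for Jak3, 8.25% for Tyk2 and 4.33% for Jak1. Jak3 shares 7.55% of its exon bases with Insl3 on the same strand. Its log2 fold change was 0.10 with a wide 95% interval of -0.75 to 0.96 (SE 0.36, edgeR adjusted p = 0.933). The ratio of Jak3 to Jak1 per kb was 0.190, 0.188 and 0.323 against 0.201, 0.392 and 0.200 (log2 difference 0.15, exact permutation p = 0.50). That difference turned to -0.17 without IL-4Rα-/- replicate 2. Tyk2, which binds IL-13Rα1, was at 219, 256 and 266 CPM in IL-4Rα+/+ and 220, 258 and 241 CPM in IL-4Rα-/- libraries (log2 fold change -0.04, 95% interval -0.29 to 0.20, edgeR adjusted p = 0.899).

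Stat6, the transcription factor of the pathway, was at 513, 472 and 478 CPM in IL-4Rα+/+ and 454, 448 and 468 CPM in IL-4Rα-/- libraries. The genotypes did not overlap, and each IL-4Rα-/- value was below the lowest IL-4Rα+/+ value by a small margin. The log2 fold change was -0.09 (SE 0.07, 95% interval -0.26 to 0.07, edgeR adjusted p = 0.704).

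Irs2, the docking protein of the type I receptor, was at 34.2, 28.0 and 27.7 CPM in IL-4Rα+/+ and 28.8, 22.8 and 25.3 CPM in IL-4Rα-/- libraries. The genotypes overlapped through IL-4Rα-/- replicate 1 (log2 fold change -0.22, SE 0.13, 95% interval -0.53 to 0.08, edgeR adjusted p = 0.646). Irs1, its relative, had 1, 4 and 1 counts in IL-4Rα+/+ and 0, 2 and 0 counts in IL-4Rα-/- libraries. It was therefore at or near the floor of 3 counts per library that a count of 0 allows, about 0.1 CPM, and was not tested.

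Ptpn6, the phosphatase SHP-1, was the most abundant of the genes, at 886, 1012 and 879 CPM in IL-4Rα+/+ and 933, 911 and 932 CPM in IL-4Rα-/- libraries. The IL-4Rα-/- values lay inside the IL-4Rα+/+ range (log2 fold change 0.00044, SE 0.08, 95% interval -0.20 to 0.20, edgeR adjusted p = 0.999).

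**Figure D2:**
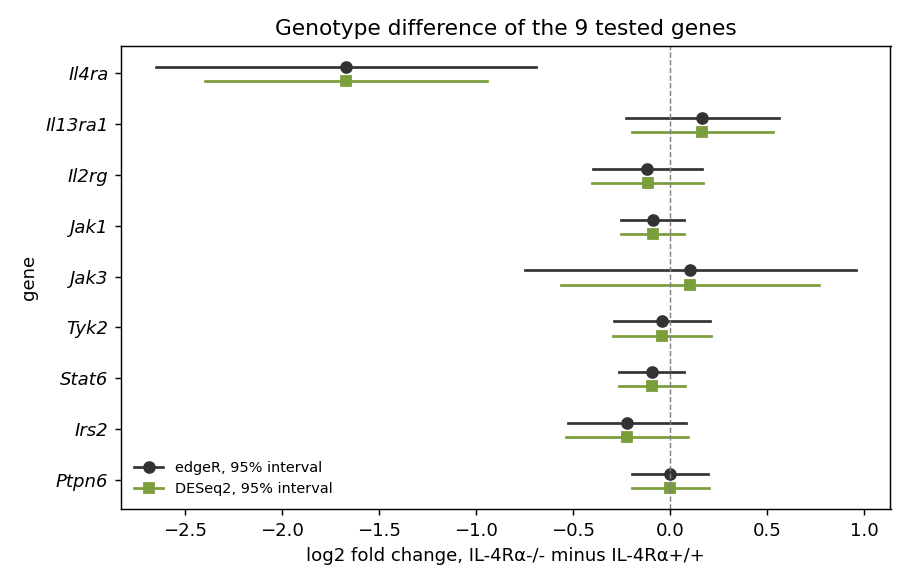
Log2 fold change of the 9 tested genes (x axis, IL-4Rα-/- minus IL-4Rα+/+, n = 3 libraries each), with points for the estimates of edgeR and DESeq2 and lines for 95% intervals. The interval of Il4ra runs from -2.65 to -0.69 in edgeR, and those of the other 8 genes include 0.

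Compared between genes per kb of exon, the mean levels over the 6 libraries ran from 330 CPM per kb for Ptpn6 through 107 for Stat6, 68.0 for Il13ra1, 50.7 for Jak1, 43.8 for Il2rg, 35.4 for Tyk2, 16.1 for Il4ra and 12.7 for Jak3 to 4.40 for Irs2. Irs1 was at 0.0052. Most neighbours in this order kept it in all 6 libraries. Jak1 and Il2rg overlapped in IL-4Rα+/+ libraries. Il4ra and Jak3 overlapped in IL-4Rα-/- libraries, where Il4ra was at 7.73 ± 4.78 CPM per kb, against 24.6 ± 4.31 in IL-4Rα+/+ (SD, n = 3 each). Of the receptor chains, the one named in the genotype was thus the lowest per length in both genotypes.

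**Figure D3:**
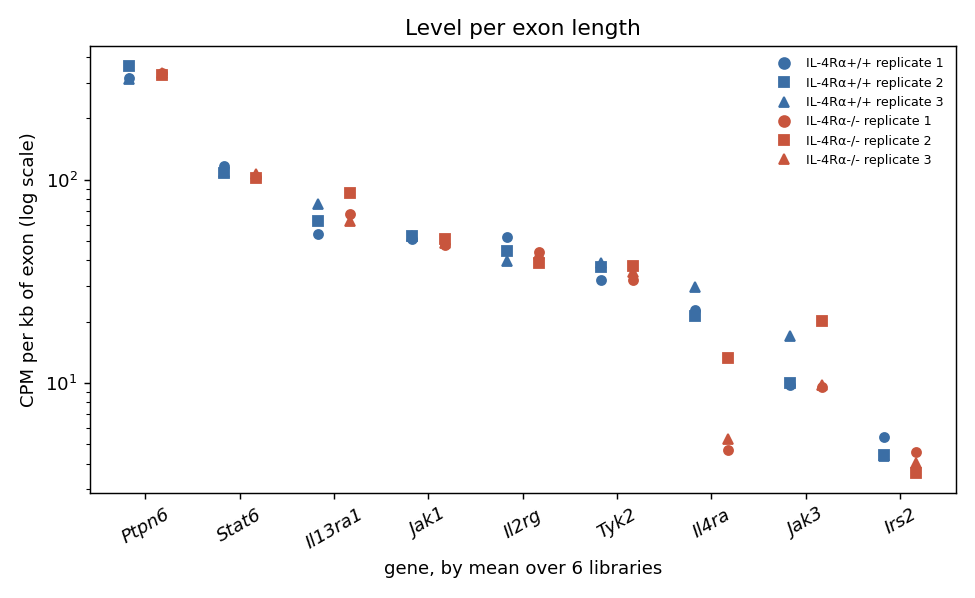
Level per exon length (y axis, CPM per kb, log scale) of the 9 genes above the floor (x axis), with 1 symbol per library. The levels run from 330 CPM per kb for Ptpn6 to 4.40 for Irs2 on average, and the gap between genotypes is wide at Il4ra.

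The libraries also differed in their balance of monocyte subsets, within as well as between genotypes. Classical mouse monocytes carry high Ly6c2 and Ccr2, and patrolling monocytes carry high Nr4a1, Spn, Treml4 and Ace. The mean log2 CPM of the first pair minus that of the other 4 genes, centred over libraries, was -1.80, -0.36 and 0.89 in the IL-4Rα+/+ libraries and -0.48, 1.69 and 0.05 in the IL-4Rα-/- libraries. IL-4Rα+/+ replicate 3 and IL-4Rα-/- replicate 2, which had the highest Il4ra, Il13ra1 and Jak3 of their genotypes, were also the highest on this axis. The axis was defined after the values were seen.

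With genotype in the same edgeR fit, 6 of the 9 genes changed along the axis at an adjusted p under 0.15, against 19.4% of 13843 genes (9.41% of genes higher toward the classical end). Those higher toward the classical end were Jak3 (slope 0.39, adjusted p = 0.0355), Il13ra1 (slope 0.18, adjusted p = 0.038), Tyk2 (slope 0.10, adjusted p = 0.0955) and Il4ra (slope 0.37, adjusted p = 0.135), where a slope is log2 CPM per log2 unit of the axis in edgeR. Those lower toward it were Il2rg (slope -0.12, edgeR adjusted p = 0.0622) and Irs2 (slope -0.13, edgeR adjusted p = 0.0997). In DESeq2 the number was 5, since Il4ra had an adjusted p of 0.175, and 2730 of all genes were called. Jak1, Stat6 and Ptpn6 had edgeR adjusted p of 0.542, 0.556 and 0.918. The number called changed with the library left out, and so did that over all genes, which was 2688 with all 6 libraries. Without IL-4Rα+/+ replicate 3, 0 of the 9 and 370 of all genes were called. Without IL-4Rα-/- replicate 2 the numbers were 1 and 1032, and without IL-4Rα-/- replicate 1 they were 2 and 1212. Without IL-4Rα+/+ replicate 1 they were 3 and 2134. With 1 library left out, the slopes of the 6 genes kept their signs, as for Il13ra1 (0.16 to 0.21), Il2rg (-0.15 to -0.097) and Il4ra (0.14 to 0.64). Without both libraries at the high end, 0 of the 9 and 221 of all genes were called, and the slope of Il4ra was -0.02. With the axis in the fit, the genotype difference of Il4ra was -2.12 (SE 0.31, edgeR adjusted p = 0.383). In bulk RNA, fewer cells of a type and less RNA per cell cannot be told apart.

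**Figure D4:**
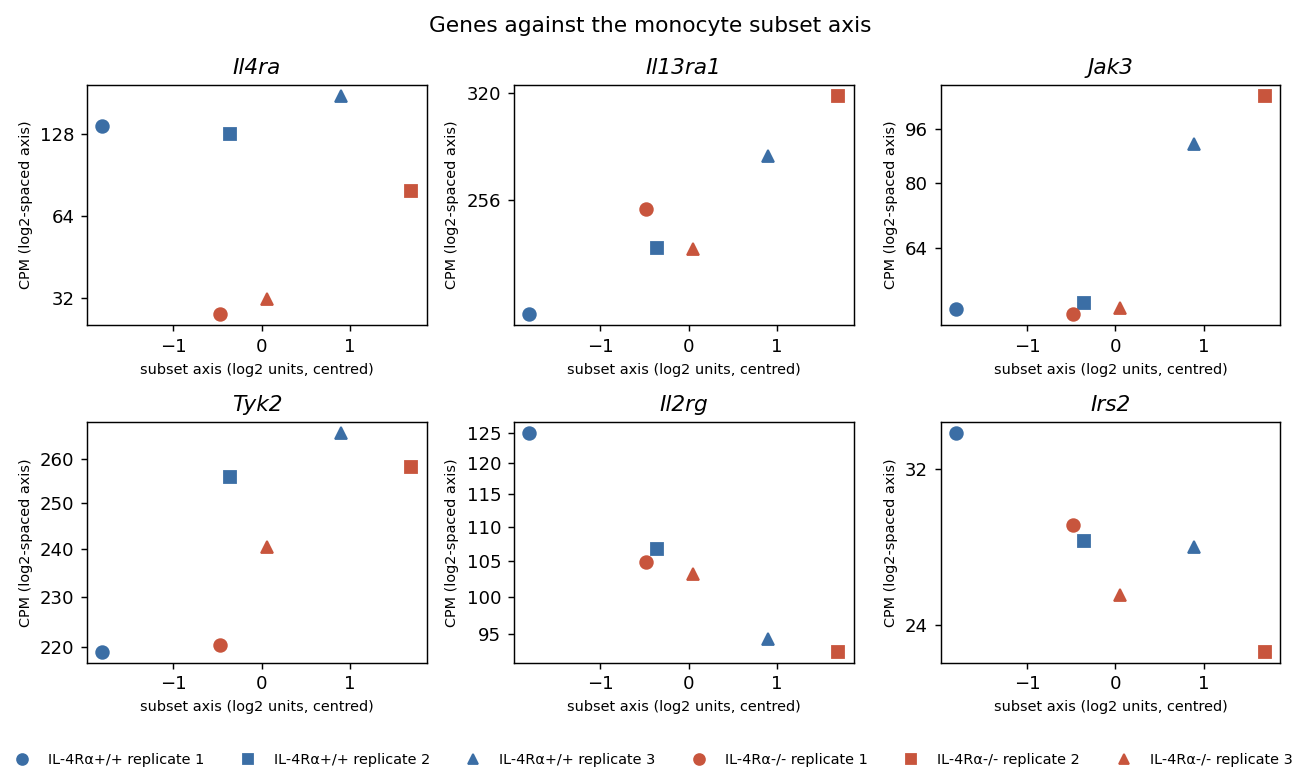
CPM of 6 genes (y axis, log2-spaced) against the monocyte subset axis (x axis, log2 units, centred, higher toward classical monocytes), with 1 symbol per library. The Il4ra values of the 3 IL-4Rα-/- libraries lie below those of the 3 IL-4Rα+/+ libraries, and Il2rg is highest at -1.80 and lowest at 1.69 on the axis.

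Markers of some other cell types differed between the genotypes in level, although no marker passed the adjusted edgeR threshold. DESeq2 called 3 of 9 erythroid markers, 2 of 10 of basophils, mast cells and eosinophils and 1 of 8 of neutrophils, against 0.571% of 14003 genes. Among all genes tested in edgeR, 48.5% were lower by any amount in IL-4Rα-/- libraries. The monocyte markers were all measured (14 of 14), and Csf1r was at 2227 to 3094 CPM. Of the erythroid markers, 9 of 9 were higher in IL-4Rα-/- libraries, with summed levels of 61.0 to 131 CPM against 176 to 424 CPM. Of the red pulp macrophage markers, 8 of 8 were higher (2767 to 3328 against 3801 to 5979 CPM), and of those of basophils, mast cells and eosinophils 9 of 10 were higher (78.8 to 93.4 against 135 to 217 CPM). Pancreas genes summed to 293 CPM in IL-4Rα-/- replicate 2, 18.2 CPM in replicate 1 of that genotype and at most 33.0 CPM elsewhere. Of the neutrophil markers, 7 of 8 were higher (20.8 to 82.4 against 69.3 to 324 CPM), while Ly6g, which defines these cells, was at most 0.315 CPM. T and NK cell markers, 4 higher and 4 lower, summed to 41.5 to 114 CPM over the 6 libraries. Dendritic cell markers, 2 higher and 4 lower, summed to 161 to 246 CPM, and the sums of B and plasma cell markers overlapped (589 to 910 against 705 to 773 CPM). Of the 5 megakaryocyte and platelet markers, 3 were tested. These 3 were higher in IL-4Rα-/- libraries (median log2 fold change 0.68), with overlapping values and no unadjusted edgeR p under 0.05. Itga2b, the highest of them, was at 1.66 to 2.98 CPM in IL-4Rα+/+ and 2.31 to 5.21 CPM in IL-4Rα-/- libraries. Gp1bb, also of this list, was at 0 in every library and was not tested. The part of these cells in the levels given above was not tested. Xist, which marks female cells, was above Ddx3y in 1 library of each genotype. With that difference in the fit the X-linked genes Il13ra1 and Il2rg had log2 fold changes of 0.17 and -0.11.

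The cytokines themselves were almost absent. Il4 had 0 to 8 counts and Il13 0 to 4 counts per library, and Il13ra2, the decoy receptor of IL-13, had 0 to 2 counts. These genes were not tested. The wider pathway was followed in a list of 63 further genes, of which 58 were tested: 29 were higher and 29 lower in IL-4Rα-/- libraries, with a median log2 fold change of 0.0021, against 0.0084 for all genes. Unadjusted p was under 0.05 in 6 of them, all lower, where 4.37% of all genes were lower and 3.72% higher at that threshold. None of the 58 passed the adjusted threshold in edgeR or in DESeq2.

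Among these 6, Il21r, the IL-21 receptor chain that pairs with the common gamma chain, had the largest difference, at 45.8, 34.8 and 22.5 CPM in IL-4Rα+/+ and 17.9, 17.5 and 23.0 CPM in IL-4Rα-/- libraries. The groups overlapped through IL-4Rα+/+ replicate 3. Its log2 fold change was -0.82 (SE 0.26, edgeR adjusted p = 0.618). It was -0.55 with the subset axis in the fit, and ran from -1.05 to -0.56 with 1 library left out at a time. Il21r lies on the forward strand of chromosome 7, 23954 bases past the end of Il4ra. The others were Ncoa3 (log2 fold change -0.36), Ep300 (-0.27) and Crebbp (-0.27), which encode coactivators of STAT6, Ptprc (-0.23), the phosphatase CD45, and Sos1 (-0.20), which activates Ras. Each of these 5 had an edgeR adjusted p of 0.618 and values that did not overlap between genotypes. Over the list, 8 of 58 genes did not overlap, against the 15.5% of all genes given above. With the trend of counts with gene length removed, the log2 fold changes of Ptprc, Ep300, Crebbp and Sos1 shrank to -0.099, -0.17, -0.17 and -0.13. In that setting Ncoa3 was at -0.33 and Il21r at -0.87.

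Of 21 genes known as STAT6 targets, 19 were tested, 12 were higher and 7 lower, and 0 had an unadjusted p under 0.05 in edgeR and 0 passed in DESeq2. The nearest were Slc7a2, an arginine transporter, at 3.86, 5.82 and 5.51 CPM against 11.03, 7.08 and 5.82 CPM, and Mrc1, the mannose receptor, at 193, 197 and 189 against 403, 260 and 189 CPM. Chil3 varied widely within genotypes, at 121, 391 and 1827 CPM in IL-4Rα+/+ and 487, 2433 and 291 CPM in IL-4Rα-/- libraries, with its high values in the 2 libraries at the classical end of the axis. Arg1 was at most 0.141 CPM. Slc7a2, Mrc1, Chil3 and Arg1 were picked out after their values were seen.

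**Figure D5:**
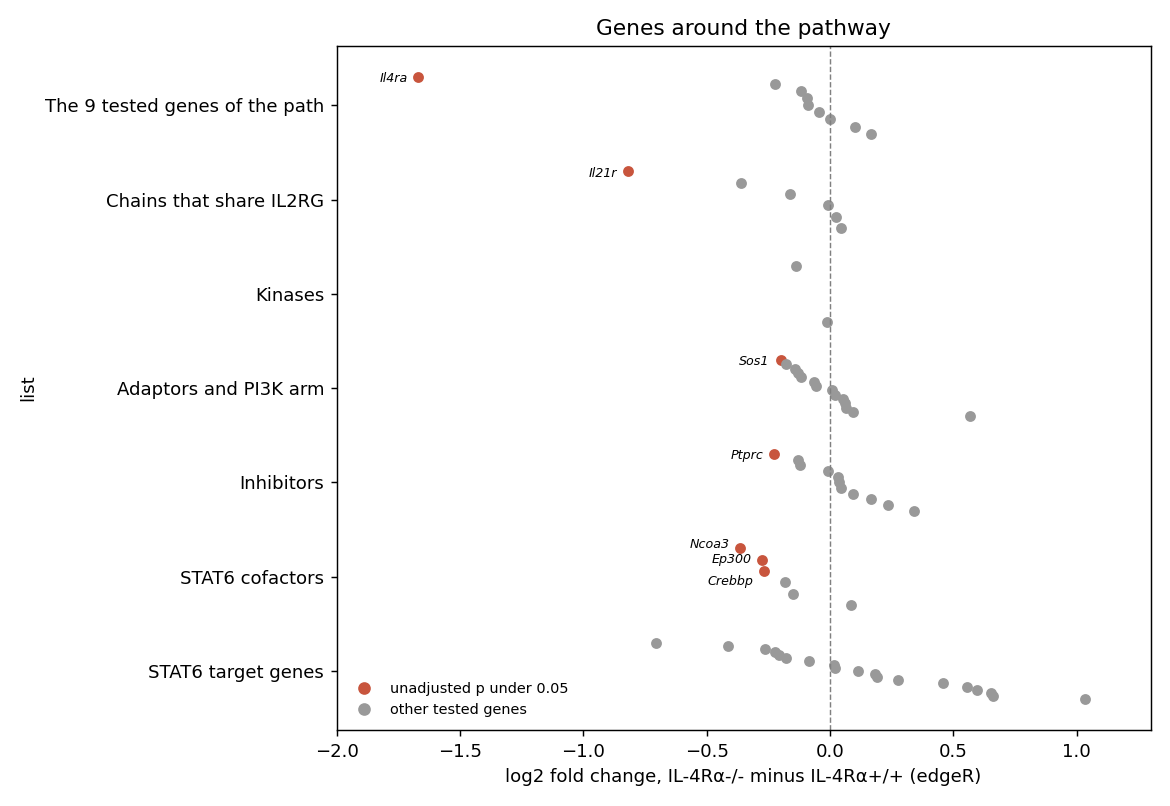
Log2 fold change (x axis, IL-4Rα-/- minus IL-4Rα+/+, edgeR) of the genes of the pathway and of each list (y axis), with 1 point per tested gene and names for those with an unadjusted p under 0.05. Il4ra (-1.67) and Il21r (-0.82) stand farthest to the left, and the named genes are all on the lower side.

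The genes whose log2 CPM over the 6 libraries was most like that of Il4ra were Secisbp2l (Pearson r = 0.992), Slc26a2 (0.984), Lsg1 (0.983), Trip11 (0.981) and Zfp106 (0.981). They shared its low IL-4Rα-/- values and the highest IL-4Rα-/- value in replicate 2, but their differences were small. Slc26a2, the one of the 5 with a Spearman rho of 1, was at 80.3, 79.7 and 83.8 CPM against 64.0, 73.1 and 68.2 CPM. Of all genes tested, 18 had that rho, Slc26a2 among them. The correlations are a description over libraries that share depth and genotype, not a test.

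Since reads of Il4ra remained in every IL-4Rα-/- library, its start region is shown as well, from RefSeq (GRCm38.p6, chr7:125552021-125552320, forward strand, 62% G or C). STAT6 binds TTC and GAA with 4 bases of any kind between them, and other STAT proteins bind them with 3 bases between, each motif being its own reverse complement. They occurred in 6.95% and 8.3% of 32851 mouse promoter windows of this length, and in 0 of the 10 windows of these genes for either. The octamer ATGCAAAT, in capitals and searched on both strands, occurred in 1.74% of windows and in that of Il4ra alone among the 10, and was looked for after the sequence was seen. A match or its absence in this window says nothing of binding.
Il4ra promoter: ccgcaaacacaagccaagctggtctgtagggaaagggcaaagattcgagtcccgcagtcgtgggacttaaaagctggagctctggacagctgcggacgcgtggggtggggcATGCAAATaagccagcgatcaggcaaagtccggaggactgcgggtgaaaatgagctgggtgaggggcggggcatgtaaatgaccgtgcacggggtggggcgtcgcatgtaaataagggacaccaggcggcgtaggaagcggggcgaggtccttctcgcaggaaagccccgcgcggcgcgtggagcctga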

How the data were processed

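RNA sequencing of spleen monocytes was measured in 6 libraries, 3 per genotype. The authors aligned 75-base reads to GRCm38 with STAR 2.6.1a and deposited the raw read counts per gene (per the labels and the study's methods). The strand setting of these counts was not given in the sources used here. The libraries held 26807281 to 29033297 counts on genes. STAR's summary lines, 21.08 to 22.84% of reads, were left out. Counts were tested with edgeR 4.0.16 (R 4.3.3) on 13849 genes. The settings were filterByExpr with a minimum count of 10, TMM, the quasi-likelihood test, Benjamini-Hochberg adjustment and a threshold of 0.15. The study had used that threshold with DESeq2 1.22.2, and DESeq2 1.42.0 was an alternative here. On simulated counts the edgeR test was checked. Lengths and positions came from GENCODE M21, in which 55240 of 55421 identifiers were found. Standard errors and 95% intervals of fold changes came from the edgeR fit. They rest on the spread of the gene between these libraries and on that of other genes. The floor of 3 counts covers counting error only.

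Groups came from the genotype labels. Same-numbered libraries did not deviate together (correlations 0.185, -0.271 and -0.296), so no block was used. The members and lists were chosen with earlier results of these data known. Named genes were the 10 genes, listed genes with an unadjusted p under 0.05, and the 5 genes most correlated with Il4ra. Other genes were named after their values were seen, as stated there. Alternatives changed the normalization, filter, test, covariates, length and libraries.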

Additional observations from a re-analysis of the deposited data

How the results depend on the processing

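With DESeq2, the tool of the study, in place of edgeR, the number of genes called between genotypes went from 0 to 80. That of the 10 genes went from 0 to 1, which was Il4ra (log2 fold change -1.67, DESeq2 adjusted p = 0.0111). Without both libraries highest on the subset axis, an alternative chosen after seeing the data, 1 gene was called and it was 1 of the 10, Il4ra at -2.15 (edgeR adjusted p = 0.053). That setting turned Jak3 to -0.023 and Ptpn6 to -0.023, gave 0 of the 10 genes and 221 genes called on the axis, and turned the slopes of Il4ra to -0.020 and of Ptpn6 to 0.12. Jak3 was at -0.27 with the axis in the fit, and Ptpn6 at -0.065 with the length trend removed.

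Leaving out 1 library at a time gave Il4ra -2.30 to -1.41, Il13ra1 0.020 to 0.30, Il2rg -0.21 to -0.0048, Irs2 -0.32 to -0.12, Jak3 -0.34 to 0.42, Tyk2 -0.12 to 0.015, Ptpn6 -0.034 to 0.069 and the ratios of Il2rg to Il13ra1 -0.50 to -0.056 and of Jak3 to Jak1 -0.17 to 0.41, all on the log2 scale. It gave 0 to 6 of the 10 genes and 370 to 3116 genes called on the axis, and a Ptpn6 slope of -0.051 to 0.027. Genes called between genotypes stayed at 0. Over all 144 values of the 8 other tested genes, 0 passed the threshold, 13 changed sign and the lowest adjusted p was 0.436. The 6 named pathway genes kept their sign in 108 of 108 values, with adjusted p from 0.227 to 0.901. By longest transcript, or by exon bases not shared with another gene, 8 of the 10 genes kept their place in the order of levels. Of the 5 genes most like Il4ra, 1 had a Spearman correlation of 1. The cause of these shifts was not tested.

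With the replicate number as a block, Il4ra was at -1.83 (edgeR adjusted p = 0.812), 0 genes were called, and the ratio of Il2rg to Il13ra1 differed by -0.28 with an exact paired p of 0.50. The block changed no call. With 3 libraries per genotype, differences as small as those of Stat6 and Jak1 were not detectable here.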
